A study of Rattus norvegicus with 18 samples.

Results

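The genes described here carry rat cells from G1 into S phase and copy their DNA. They were picked by name and function, with earlier results of these data known. Each gene was represented by the probe set whose only annotated symbol was that gene, and by the probe set with the highest mean over the 18 arrays where there were several. The names comprise 55 genes in 6 steps: 10 cyclins, cyclin-dependent kinases (CDKs) and E2F factors, 5 genes of origin licensing, 14 of the replicative helicase and its activation, 16 polymerases, clamp and fork factors, 5 of nucleotide supply, and 5 of chromatin assembly and methylation copying. Of the 55, 50 had such a probe set, among 14217 genes in all. Of these, 49 reached log2 4 on at least 3 arrays and were tested, among 9015 genes tested. Cdc6, Gins2, Cdc7, Dbf4 and Rrm2 lacked a probe set of their own and were not analysed here. Cdk6, a kinase partner of the D cyclins, had group means between log2 2.16 and 2.20, at the floor of the measurement, and was not tested. None of the 49 tested genes had a group mean below log2 4 (0 genes). Orc1 came nearest, with a mean of 4.0 in the control cells at 72 h.

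The samples were cultures of NRK-52E, an established rat kidney line that the labels assign to renal proximal tubule and to the strain Osborne-Mendel. Cells grown to confluence received aristolochic acid at 1.65 µM in 0.1% DMSO, which the labels give as the 10% inhibitory concentration at 72 h, or 0.1% DMSO without the compound. RNA was taken after 6 h, 24 h or 72 h and measured on 18 single-colour Affymetrix expression arrays, 3 in each of 6 groups, which are called AA or DMSO followed by the hour. All groups share the line, the confluent start, the serum-containing medium and the solvent. The design asks how exposed cells differed from solvent controls of the same hour and how the difference moved with time. Replicates are named biological in the labels, which are silent on shared plates and days, so a p-value here measures the spread between these samples. With 3 arrays a group, the number of arrays limits the precision.

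D-type cyclins with Cdk4 or Cdk6, and then E-type cyclins with Cdk2, phosphorylate the retinoblastoma protein and release E2F transcription factors, which switch on many replication genes. The origin recognition complex, Cdc6 and Cdt1 load the ring of Mcm proteins on DNA in G1, geminin (Gmnn) blocks Cdt1 afterwards, and Cdc45 with the GINS complex turns the ring into a moving helicase. Aristolochic acid forms bulky adducts on DNA, and p21 (Cdkn1a), a p53 target, inhibits the cyclin-CDK pairs that start S phase.

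The promoters of these genes were read because E2F proteins bind short letter patterns close to many replication gene starts. RefSeq's promoter table (assembly GRCr8) held 47 promoters for 44 of the 55 genes, and lacked Ccnd1, Ccnd2, Ccne2, Cdk6, E2f1, E2f8, Orc1, Cdc6, Mcm4, Gins4 and Rrm2. The 250 bases before each start were searched on both strands for the E2F letters TTTCCCGC, TTTGGCGC and TTTCGCGC. A match stood in 9 of the 47 promoters (19.1%) and in 1.41% of the 33469 promoters of that length in the table. Base composition was not matched between these sets. The helicase step held 6 of the 9, in 12 promoters (50%), and the others were in Pola1, Tyms and Uhrf1. The CCAAT box, searched as CCAAT, stood in 55.3% of the 47 promoters and in 34% of the table. The CHR element, searched as TTTGAA, stood in 10.6% and 16.2%. The windows of the helicase genes and of Tyms are shown because the results turn on several of these genes. They are written along the gene's own strand and end before the start used in RefSeq's promoter table. For Mcm2, Mcm7, Gins3 and Tyms that start lies inside the gene's span in RefSeq's gene table, so their windows lie wholly or, for Mcm7, partly within the annotated gene. Capitals mark the E2F letters on either strand, and in Gins1, Mcm2, Mcm5 and Mcm6 matches on opposite strands overlap. In Mcm7, 1 match overlaps CCAAT letters.
Mcm2, chr4:122918095-122918154, minus strand: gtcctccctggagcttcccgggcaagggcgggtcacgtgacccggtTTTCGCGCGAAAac
Mcm5, chr19:13488590-13488812, plus strand: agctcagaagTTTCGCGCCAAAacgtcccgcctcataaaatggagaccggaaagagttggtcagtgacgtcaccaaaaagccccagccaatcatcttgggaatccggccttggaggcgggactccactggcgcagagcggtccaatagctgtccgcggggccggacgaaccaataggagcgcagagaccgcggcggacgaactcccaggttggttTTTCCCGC
Mcm6, chr13:42404456-42404515, minus strand: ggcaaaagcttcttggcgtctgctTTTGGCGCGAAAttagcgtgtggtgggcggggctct
Mcm7, chr12:22163213-22163421, minus strand: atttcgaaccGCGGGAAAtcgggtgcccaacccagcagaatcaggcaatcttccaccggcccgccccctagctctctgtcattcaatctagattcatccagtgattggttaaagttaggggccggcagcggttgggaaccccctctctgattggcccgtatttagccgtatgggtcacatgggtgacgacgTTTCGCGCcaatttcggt
Gins1, chr3:160184860-160184919, plus strand: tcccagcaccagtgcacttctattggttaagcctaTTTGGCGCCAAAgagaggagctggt
Gins3, chr19:9434682-9434741, minus strand: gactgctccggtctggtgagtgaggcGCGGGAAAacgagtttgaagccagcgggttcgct
Tyms, chr9:120776087-120776146, minus strand: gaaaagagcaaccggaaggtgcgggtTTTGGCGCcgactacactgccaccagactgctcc
The overlapping pairs in Mcm2 and Gins1 began 14 and 25 bases before the promoter table's start, and the single Tyms match 37 bases before it. A match is a description of letters, and binding was not measured here.

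Values below are deposited log2 expression values, a difference is AA minus DMSO at the same hour unless a time comparison in DMSO is named, and ± is the standard error of the fitted difference. A gene is said to have risen or fallen where limma's test gave a Benjamini-Hochberg adjusted p under 0.05 over all 9015 genes. The medians of the arrays lay between 4.03 and 4.20. Of 12 measured proximal tubule markers only Aqp1 and Ggt1 had means above log2 4 (2 genes), and Lrp2, Cubn, Slc34a1 and Slc22a6 were below it. Of 8 general epithelial markers 3 were above log2 4 (Krt8, Tjp1 and Ocln) and Cdh1 and Epcam were not. Of 12 fibroblast and mesenchyme markers 7 were above it, Vim and Col1a1 among them, and Pdgfra, Pdgfrb, Dcn, Lum and Thy1 were not. The summed fibroblast markers were lower at 72 h (83.9 to 87.6 in DMSO and 85.3 to 86.7 in AA) than at 6 h and 24 h (90.8 to 95.0 over both treatments). In DMSO between 24 h and 72 h, 6 of the 7 tested fell, against 17.1% of all genes. Col1a1 fell most (-2.29 ± 0.22), while Col3a1 rose (0.48 ± 0.10). The summed proximal tubule markers were 34.3 to 34.8 in DMSO and 31.3 to 32.0 in AA at 72 h. At 72 h the summed endothelial markers were 12.7 to 12.9 in DMSO and 10.4 to 10.9 in AA, and the summed immune markers 22.6 to 23.2 and 24.5 to 24.7. Within each of the tubule, endothelial and immune sums at 72 h, 1 gene made up most of the difference. These were Aqp1, a water channel (-2.33 ± 0.28), Tek, an endothelial receptor (-2.02 ± 0.22), and Cd68, a macrophage marker (1.90 ± 0.36). Cd68 read 3.16 to 3.63 in DMSO 72 h, below log2 4. Cd14, the most abundant immune marker, differed by 0.03. The part of these markers in the results was not tested. Ptprc, the pan-leukocyte marker, was below log2 4, and 0 of 6 markers of the loop of Henle, distal tubule and collecting duct were above it. In pooled RNA, fewer cells making a transcript and less transcript per cell cannot be told apart.

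Replication genes were far more abundant at 6 h than later, in controls as in exposed cells. Between 6 h and 24 h in DMSO, 45 of the 49 genes fell and 2 rose, which is 95.9% of them against 58.7% of all 9015 genes (30.5% lower and 28.3% higher). The median difference was -1.51, against -0.01 over all genes. All 11 helicase genes, all 16 polymerase, clamp and fork genes, all 4 nucleotide genes and all 5 chromatin genes fell in this comparison. The 2 that rose were Ccnd1 (cyclin D1) by 0.67 ± 0.09 and its kinase Cdk4 by 0.45 ± 0.09. Ccnd2 (-0.14) and the licensing factor Cdt1 (-0.21) did not pass the test. By the chosen probe sets, the steepest falls were those of Pole2 (-2.51 ± 0.29), Chaf1a (-2.47 ± 0.18) and Gins3 (-2.30 ± 0.19). Pole2 is an accessory subunit of polymerase epsilon, Chaf1a the large subunit of chromatin assembly factor, and Gins3 part of the GINS complex. In 40 of the 49 genes all 6 arrays at 6 h lay above all 12 later arrays, an order that was not counted over all genes. The DMSO 24 h arrays all lay below the DMSO 6 h arrays in 46 genes, against 32.9% of all genes, and above them in 2, against 31.3%.

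**Figure D1:**
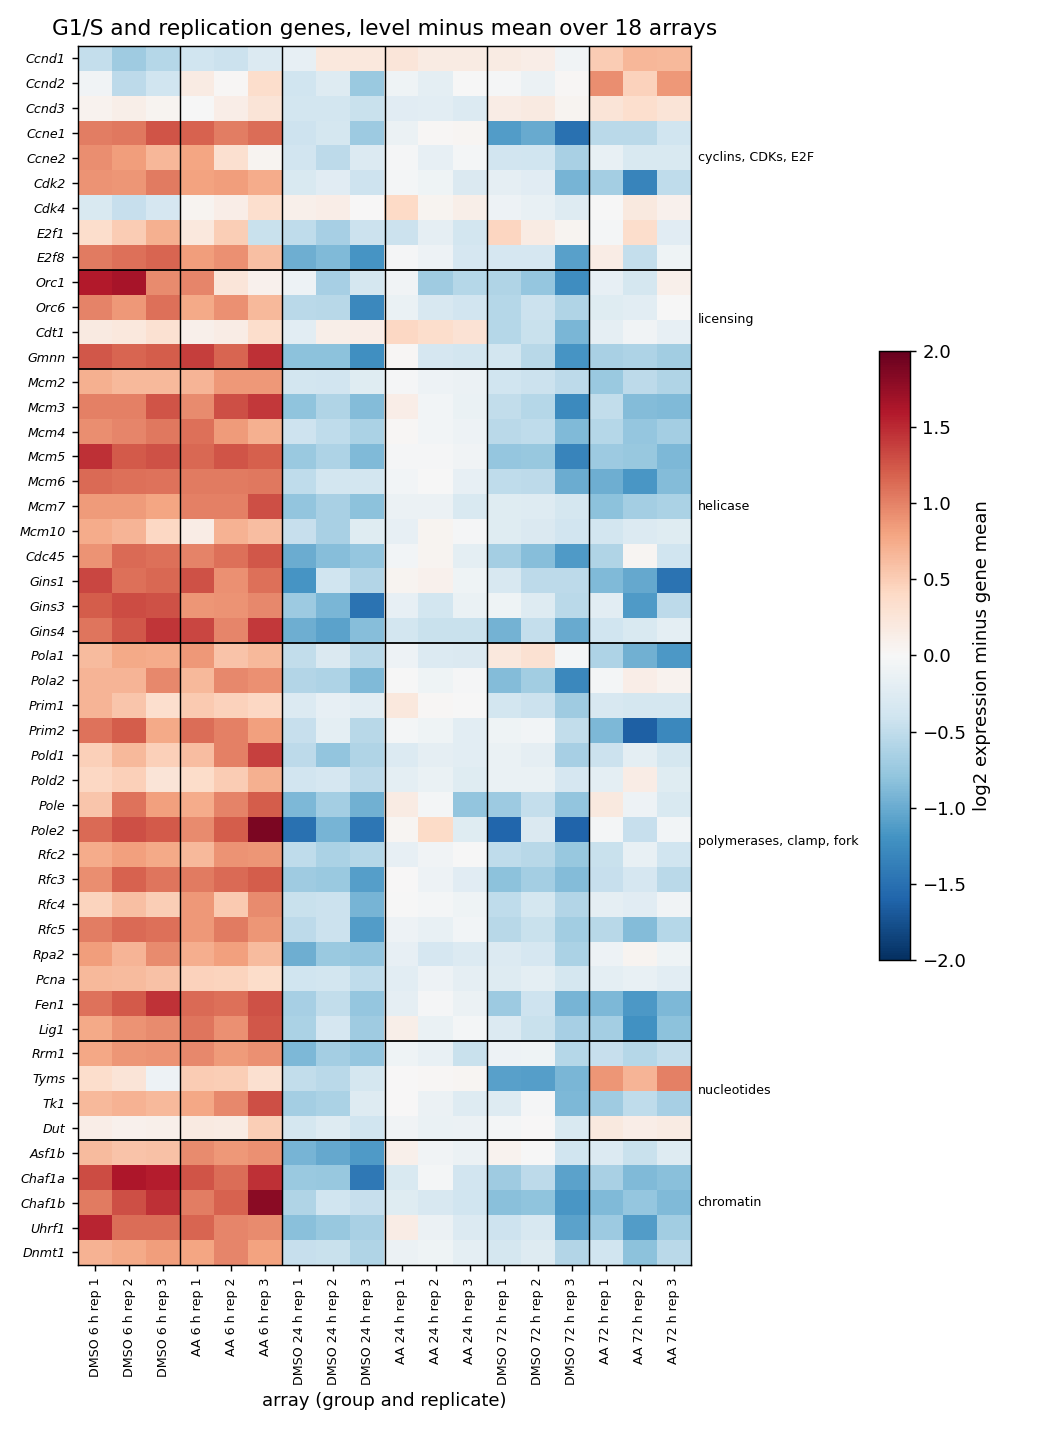
Log2 level of each of the 49 tested genes (vertical axis, ordered by step) on each of the 18 arrays (horizontal axis, by group and replicate), as the difference from that gene's mean over all arrays. Red at 6 h and blue at 24 h in DMSO show the fall of 45 genes; Ccnd1, Ccnd2, Cdk4 and Cdt1 do not share it, and DMSO 72 h replicate 3 is the darkest blue of its group in most lines.

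Between 24 h and 72 h in DMSO the genes spread. Of the 49, 11 rose and 5 fell, or 32.7% against 34.3% of all genes, with a median of 0.13 against -0.00. The DMSO 72 h arrays all lay above the DMSO 24 h arrays in 10 genes and below them in 8, against 26.7% and 25.9% of all genes. The largest rise was that of Asf1b, a histone chaperone that hands histones to chromatin assembly factor (0.91 ± 0.11), followed by Gins3 (0.76 ± 0.19) and E2f1 (0.74 ± 0.20). Ccne1, which encodes cyclin E1 (-0.70 ± 0.12), Cdt1 (-0.66 ± 0.11) and Tyms, the thymidylate synthase that makes dTMP (-0.58 ± 0.11), fell. Without DMSO 72 h replicate 3, an array that stood low for these genes, 13 rose and 3 fell. The medians over the 49 genes were 9.74 in DMSO and 9.79 in AA at 6 h, 8.27 and 8.75 at 24 h, and 8.31 and 8.30 at 72 h.

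**Figure D2:**
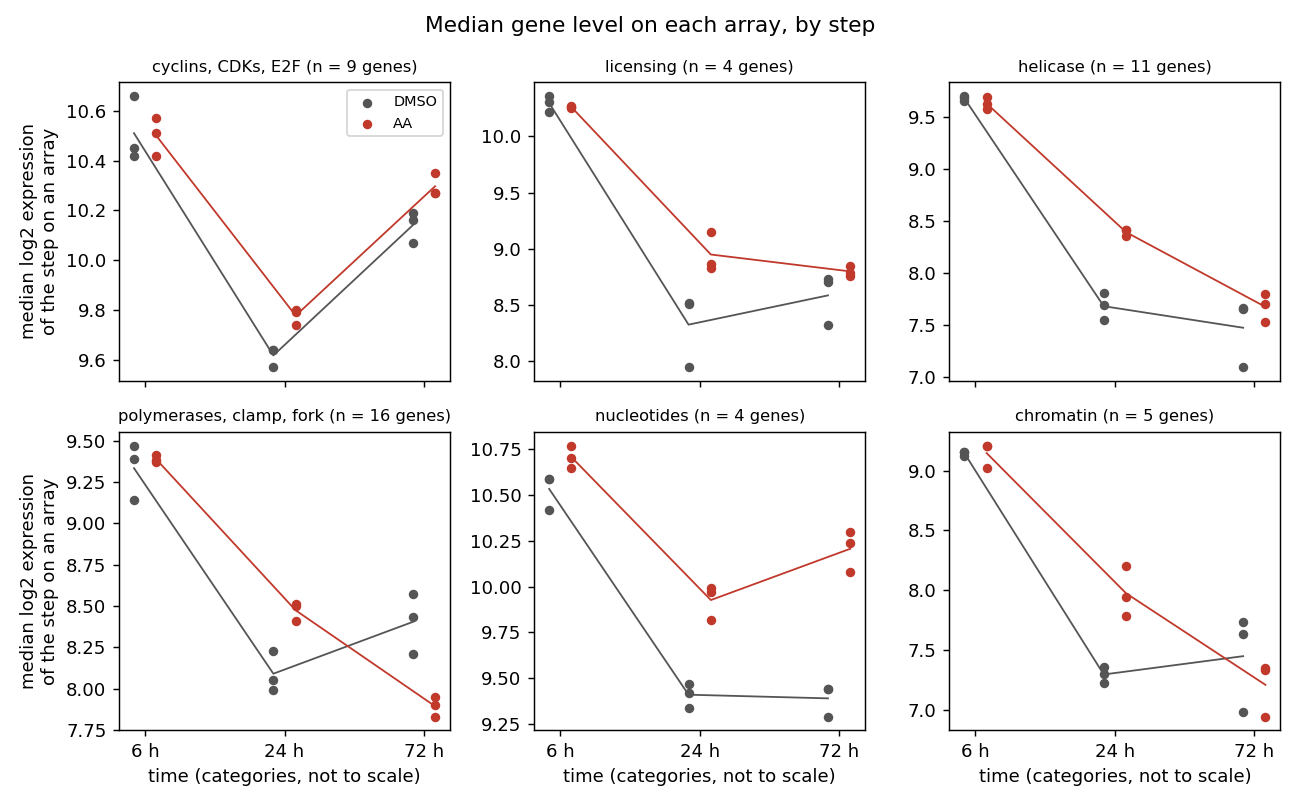
Median log2 level over the tested genes of a step on each array (points; vertical axis) at 6, 24 and 72 h (horizontal axis, categories), grey for DMSO and red for AA, with lines through the group means. At 24 h the AA points lie above the DMSO points in every panel; at 72 h all AA points are above the DMSO points for nucleotide supply, for cyclins, CDKs and E2F factors and for licensing, and below them for the polymerase panel, whose middle genes differ between the groups.

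At 6 h few of the genes differed between exposed and control cells. Of the 49, 4 rose and 3 fell, which is 14.3%, below the 24.5% of all genes that passed the test at this hour. The median difference was 0.04, against 0.01 over all genes. The rises were those of Cdk4 (0.54 ± 0.09, adjusted p = 0.000547), Ccnd2, which encodes cyclin D2 (0.51 ± 0.14, adjusted p = 0.0116), Asf1b (0.31 ± 0.11, adjusted p = 0.0499) and the helicase subunit Mcm7 (0.27 ± 0.08, adjusted p = 0.0263). The falls were those of Orc1, the largest subunit of the origin recognition complex (-0.95 ± 0.26, adjusted p = 0.0127), Ccne2, which encodes cyclin E2 (-0.43 ± 0.13, adjusted p = 0.025), and the sliding clamp Pcna (-0.20 ± 0.06, adjusted p = 0.016).

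Cdk4 read 11.67, 11.51 and 11.63 in DMSO (replicates 1, 2 and 3) and 12.03, 12.10 and 12.30 in AA at 6 h. Every AA array was above every DMSO array for Cdk4. Orc1 read 6.46, 6.52 and 5.82 in DMSO and 5.86, 5.12 and 4.97 in AA at 6 h. The groups overlapped for Orc1, since its lowest control array was below its highest AA array. Pcna read 13.78, 13.77 and 13.72 in DMSO and 13.60, 13.58 and 13.50 in AA. All 3 AA arrays were the lower ones for Pcna, by a small amount. The 6 h calls rested on single arrays: only Cdk4 passed without AA 6 h replicate 3 or without DMSO 6 h replicate 2 (1 gene), and 2 rose and 3 fell without DMSO 6 h replicate 3. With arrays centred on their own medians the split was 8 higher and 1 lower.

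At 24 h the replication genes stood higher in exposed cells as a group. Of the 49, 24 rose and 0 fell (49%), against 2.09% of all genes, 1.81% higher and 0.277% lower. At an unadjusted p under 0.05 limma gave 40 higher and 0 lower. The median difference was 0.48, against -0.01 over all genes, and 48 of the 49 differences were above 0, the exception being Orc1 (-0.08). In 43 of the 49 genes all AA arrays lay above all DMSO arrays, against 9.04% of all genes, and in 0 all lay below, against 10.4%. The AA 24 h mean lay between the DMSO 24 h and DMSO 6 h means in 44 of the 49 genes, a position that shares the DMSO 24 h arrays with the treatment difference. In 46 of the 49 genes the AA 24 h mean was below the AA 6 h mean, which shares none of them.

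**Figure D3:**
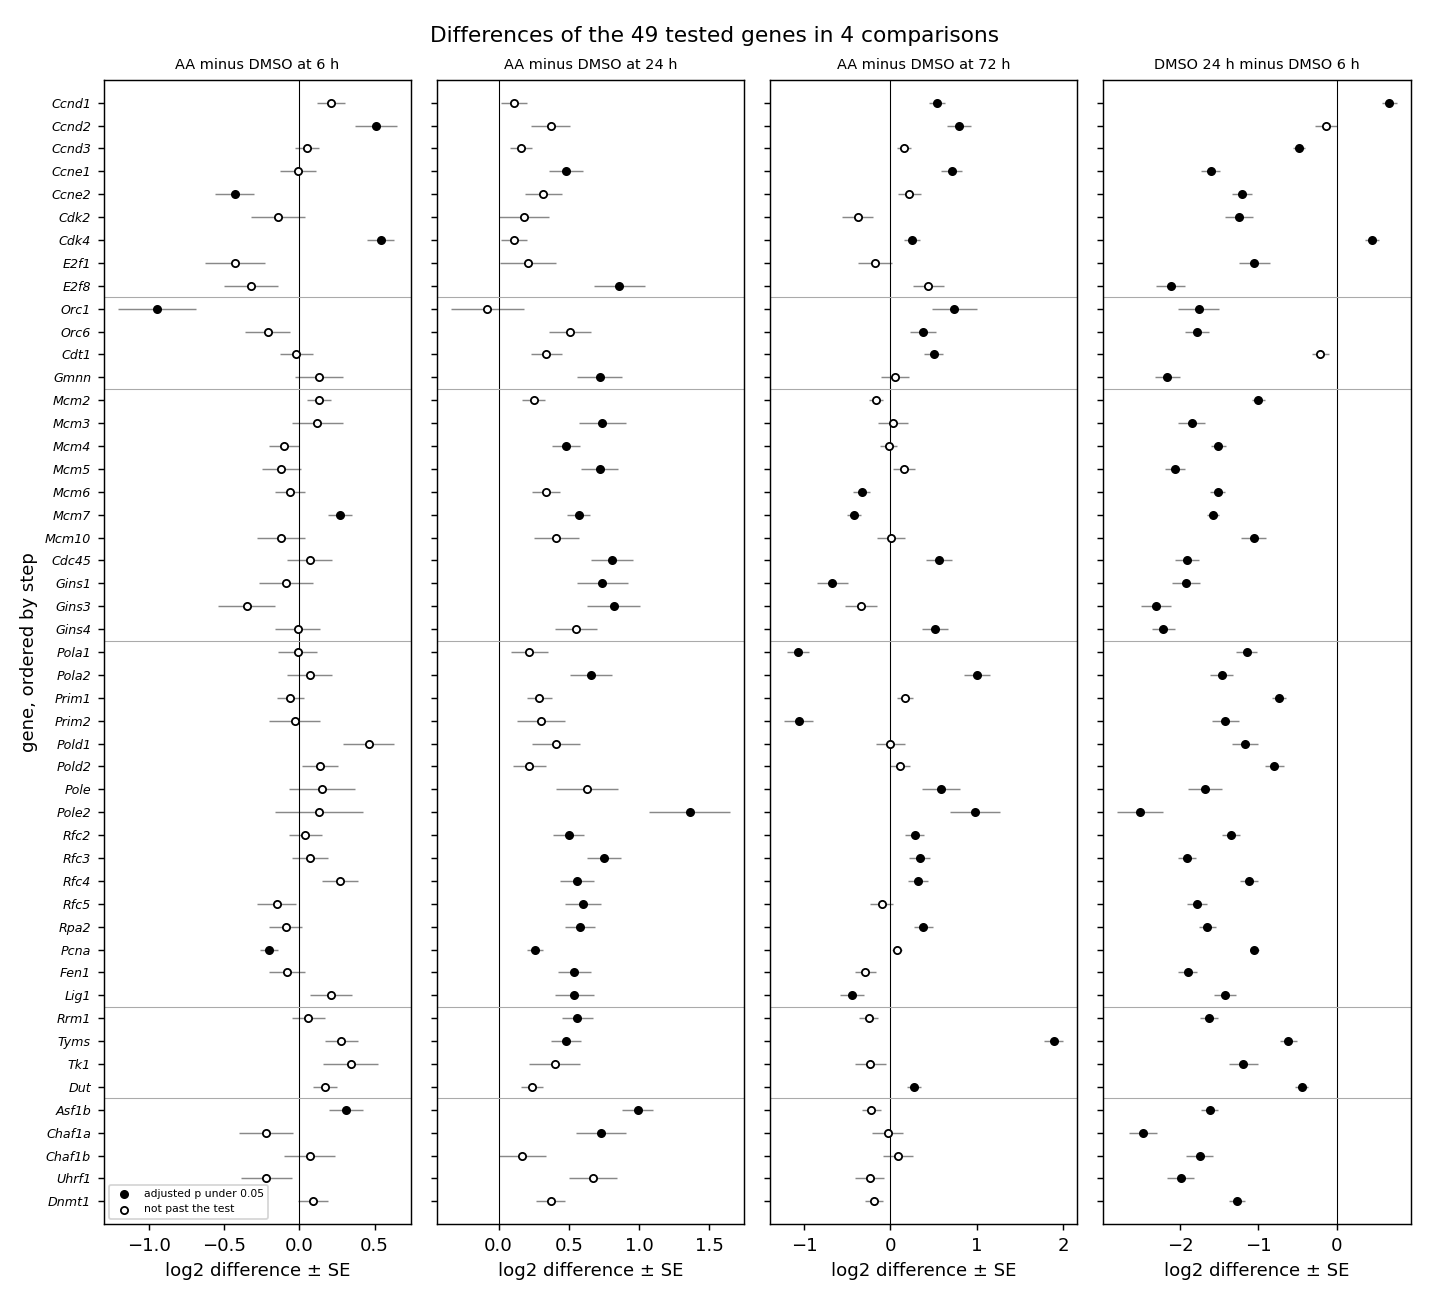
Fitted log2 difference ± SE (horizontal axes) of each of the 49 genes (vertical axis, by step) for AA minus DMSO at 6, 24 and 72 h and for DMSO 24 h minus DMSO 6 h; filled points passed the test. At 24 h 48 points lie to the right of 0, while at 72 h the genes spread from -1.07 (Pola1) to 1.89 (Tyms).

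Among cyclins, CDKs and E2F factors, 2 of 9 rose at 24 h. E2f8, an atypical E2F that represses E2F targets and is itself an E2F target, read 6.51, 6.60 and 6.31 in DMSO and 7.46, 7.39 and 7.15 in AA. Every AA array was above every DMSO array, and the difference was 0.86 ± 0.18 (adjusted p = 0.014). Ccne1 read 8.98, 9.04 and 8.67 in DMSO and 9.28, 9.42 and 9.43 in AA. The AA arrays were again the 3 higher ones, by 0.48 ± 0.12 (adjusted p = 0.0402). Ccnd1, Cdk4, Cdk2 and E2f1 differed by 0.11, 0.11, 0.18 and 0.21 and did not pass.

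In licensing, 1 of 4 genes rose at 24 h. Gmnn, the Cdt1 inhibitor of S and G2 phase, read 8.42, 8.42 and 8.02 in DMSO and 9.26, 8.90 and 8.87 in AA. The AA arrays were all higher, by 0.72 ± 0.16 (adjusted p = 0.0172). Orc6 (0.51 ± 0.15, adjusted p = 0.101) and Cdt1 (0.34 ± 0.11, adjusted p = 0.149) did not pass, although every AA array of both genes was above the DMSO arrays.

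In the helicase, 7 of 11 genes rose at 24 h (63.6%), and all 11 had every AA array above every DMSO array. Mcm5, a ring subunit, read 7.69, 7.81 and 7.55 in DMSO and 8.41, 8.41 and 8.36 in AA. The 2 groups were well apart and the difference was 0.72 ± 0.13 (adjusted p = 0.00317). Mcm7, another ring subunit, read 10.02, 10.15 and 9.99 in DMSO and 10.69, 10.69 and 10.50 in AA. Its difference of 0.57 ± 0.08 had the lowest adjusted p of the step (0.000696). Cdc45, which completes the active helicase, read 6.91, 7.05 and 7.13 in DMSO and 7.85, 7.96 and 7.71 in AA. No DMSO array reached an AA array, and the difference was 0.81 ± 0.15 (adjusted p = 0.00445). Gins1 read 5.95, 6.73 and 6.54 in DMSO and 7.18, 7.21 and 7.04 in AA. DMSO replicate 1 was far below the other controls, and the difference was 0.74 ± 0.18 (adjusted p = 0.03). Gins3, Mcm3 and Mcm4 rose by 0.82, 0.74 and 0.48. Mcm2, Mcm6, Mcm10 and Gins4 differed by 0.25, 0.34, 0.41 and 0.55 and did not pass. The other Mcm10 probe set (mean 4.86 against 5.36) differed by 0.91, and Mcm10 passed with the mean of a gene's probe sets.

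Among polymerases, clamp and fork factors, 10 of 16 rose at 24 h (62.5%). Pole2 had the largest difference of the 49 genes (1.36 ± 0.29, adjusted p = 0.0142), with arrays at 4.95, 5.51 and 5.00 in DMSO and 6.49, 6.83 and 6.21 in AA. The groups did not overlap, and the control level was low on the scale of the array. The 4 subunits of replication factor C among the 55 genes, which load the clamp, rose: Rfc3 by 0.75, Rfc5 by 0.60, Rfc4 by 0.56 and Rfc2 by 0.50. The large subunit Rfc1, which was in the list of other replication genes, differed by 0.09 ± 0.13 and did not pass. Rfc3 read 7.25, 7.21 and 6.85 in DMSO and 7.96, 7.85 and 7.73 in AA (adjusted p = 0.00128). Its AA arrays were the 3 higher ones. Rpa2, which coats single-stranded DNA, rose by 0.58 ± 0.11, the accessory polymerase alpha subunit Pola2 by 0.66 ± 0.15, and the Okazaki fragment enzymes Fen1 and Lig1 by 0.54 each. Pcna rose by 0.26 ± 0.06 (adjusted p = 0.0172), from 12.74, 12.77 and 12.62 to 12.92, 13.03 and 12.95, having been lower in AA at 6 h. The catalytic subunits Pola1, Pold1 and Pole differed by 0.22, 0.41 and 0.63 and did not pass, nor did the primase subunits Prim1 (0.29) and Prim2 (0.30).

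In nucleotide supply, 2 of 4 genes rose at 24 h. Rrm1, the large subunit of ribonucleotide reductase, read 9.82, 10.04 and 9.94 in DMSO and 10.63, 10.57 and 10.27 in AA, a difference of 0.56 ± 0.11 (adjusted p = 0.00832). Tyms read 8.86, 8.81 and 9.0 in DMSO and 9.36, 9.37 and 9.38 in AA, a difference of 0.48 ± 0.11 (adjusted p = 0.0262). Neither gene's groups overlapped. Thymidine kinase Tk1 (0.40) and the dUTPase Dut (0.24) did not pass.

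In chromatin assembly, 2 of 5 genes rose at 24 h. Asf1b read 7.56, 7.47 and 7.36 in DMSO and 8.59, 8.42 and 8.37 in AA. This difference of 0.99 ± 0.11 (1.99-fold) had the lowest adjusted p of the 49 genes at this hour (0.000134), and the groups were wide apart. Chaf1a read 7.01, 7.0 and 6.33 in DMSO and 7.45, 7.71 and 7.38 in AA, a difference of 0.73 ± 0.18 (adjusted p = 0.0283). Uhrf1, which brings the maintenance methyltransferase Dnmt1 to copied DNA, read 7.22, 7.30 and 7.40 in DMSO and 8.20, 7.94 and 7.78 in AA. Its groups did not overlap, but its difference of 0.67 ± 0.17 missed the threshold (adjusted p = 0.0526), as did that of Dnmt1 (0.37 ± 0.10, adjusted p = 0.0805).

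The number of calls at 24 h was sensitive to single arrays while the size of the shift was not. Without AA 24 h replicate 1, AA 24 h replicate 2 or DMSO 24 h replicate 3, 8, 7 and 8 of the 49 genes passed, with medians of 0.47, 0.48 and 0.42. Calls over all genes dropped from 188 to 100, 104 and 102 in the same fits. Mcm5, Mcm7, Cdc45, Rfc3, Rpa2 and Asf1b passed in every fit that left out 1 array. An E2F match stood in 5 of 22 promoters of genes that rose at 24 h (22.7%) and in 4 of 22 promoters of tested genes that did not pass (18.2%).

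At 72 h the controls include an array that bears on the results. DMSO 72 h replicate 3 was the lowest of its group in 47 of the 49 genes, against 42.4% of all genes, and lay a median of 0.20 below the group mean (-0.20). The calls at 72 h are therefore given with and without it. The array was singled out by these genes' own values, so in those 47 genes the difference had to be lower without it. The beta-actin 3' minus 5' difference, a sign of RNA integrity and of priming, was 1.85 to 2.16 in AA 72 h against 1.29 to 1.45 in DMSO 72 h and 0.98 to 1.27 at 6 h and 24 h, and its part in the results was not tested. The corresponding GAPDH difference was -0.12 to -0.04 in AA 72 h and -0.28 to -0.13 in DMSO 72 h.

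At 72 h the genes no longer moved as a group. With all arrays 18 of the 49 rose and 6 fell (49%), against 47.2% of all genes, and the median was 0.09 against 0.05. Rises made up 36.7% of the 49, against 27.4% of all genes, and falls 12.2% against 19.8%. Without DMSO 72 h replicate 3 the balance reversed: 7 rose and 13 fell, with a median of -0.03, where 23% of all genes were higher and 17.7% lower. The 7 rises kept were Ccnd1, Ccnd2, Ccne1, Cdt1, Cdc45, Pola2 and Tyms. The 6 falls were kept (Mcm6, Mcm7, Gins1, Pola1, Prim2 and Lig1), and Cdk2, Fen1, Rrm1, Tk1, Asf1b, Uhrf1 and Dnmt1, each by its chosen probe set, joined them with differences between -0.62 (Cdk2) and -0.28 (Dnmt1). The rises lost were those of Cdk4, Orc1, Orc6, Gins4, Pole, Pole2, Rfc2, Rfc3, Rfc4, Rpa2 and Dut. With each 72 h array left out in turn, the 7 rises kept and the falls of Mcm7, Gins1, Pola1 and Prim2 always passed. Orc6 passed in 0 of these 6 fits, Rfc4 in 1, Rfc2 and Pole in 2, Mcm6 in 3 and Lig1 in 4. The fits without another 72 h array than DMSO replicate 3 gave 13 to 17 rises and 4 to 8 falls. All arrays of AA were above those of DMSO in 20 genes and below in 5, against 34.4% and 25.2% of all genes. The median level of the 16 polymerase, clamp and fork genes was 8.43 in DMSO and 7.90 in AA, while the median of their differences was 0.14, since the gene in the middle of the order is not the same in both groups.

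**Figure D4:**
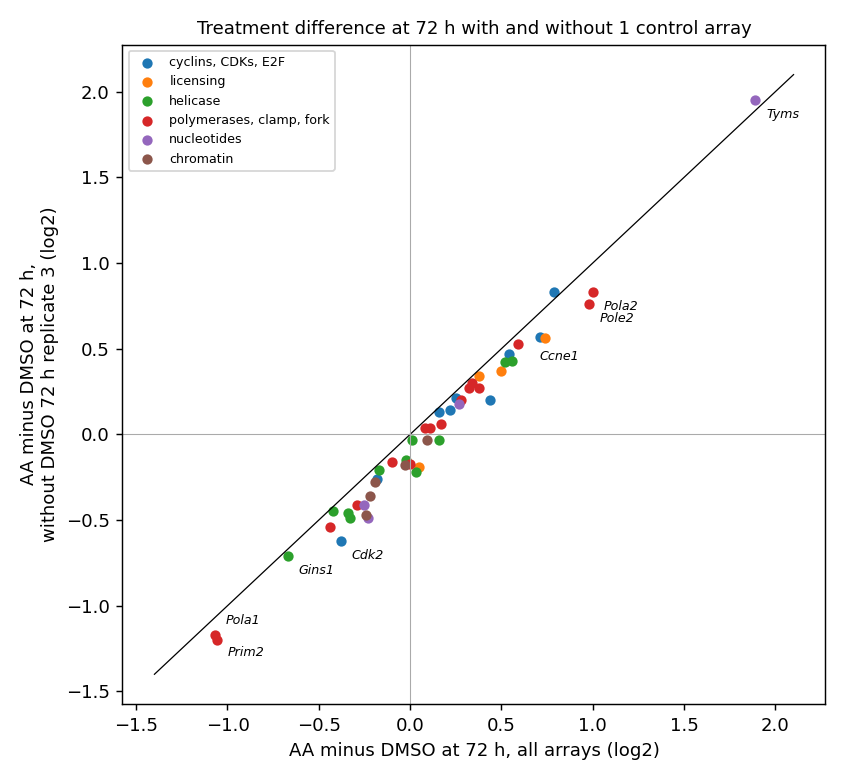
AA minus DMSO at 72 h for each of the 49 genes, with all arrays (horizontal axis, log2) and without DMSO 72 h replicate 3 (vertical axis, log2), coloured by step, with the line of equality. All points but those of Tyms and Ccnd2 lie below the line, which had to follow where the array left out was the lowest of its group. The balance moves from 18 rises and 6 falls to 7 rises and 13 falls, while Tyms (1.89 and 1.95), Pola1 and Prim2 stay far from 0 on both axes.

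Tyms stood apart from the other genes at 72 h. It read 8.26, 8.25 and 8.43 in DMSO and 10.23, 10.02 and 10.36 in AA. The difference of 1.89 ± 0.11 (3.71-fold, adjusted p = 8.2e-11) was the largest of the 49, and was 1.95 without DMSO 72 h replicate 3. Its AA level at 72 h was above every array at 6 h, where DMSO read 9.70, 9.60 and 9.24 and AA 9.85, 9.84 and 9.67. Dut, which supplies the dUMP that Tyms methylates, read 11.99, 12.03 and 11.72 in DMSO and 12.22, 12.16 and 12.18 in AA. Its difference was 0.27 ± 0.08 (adjusted p = 0.0107), with no overlap, and 0.18 (adjusted p = 0.0909) without that control array. Rrm1 read 10.61, 10.63 and 10.14 in DMSO and 10.25, 10.14 and 10.24 in AA. DMSO replicates 1 and 2 were above all AA arrays and replicate 3 was level with them. The difference was -0.25 with all arrays (adjusted p = 0.073) and -0.41 without replicate 3 (adjusted p = 0.00283). Tk1 read 7.99, 8.22 and 7.35 in DMSO and 7.54, 7.74 and 7.58 in AA, an overlapping pattern of the same kind. Another Tk1 probe set of similar level (mean 8.18 against 8.25) shared the sign of the chosen probe set, at -0.87 against -0.23. A weaker Tk1 probe set (mean 5.61) went the other way, at 1.32. Since the probe sets did not all share a sign, no direction is read for Tk1 at this hour.

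Among the 9 cyclin, CDK and E2F genes, 4 rose at 72 h with all arrays (44.4%, against 27.4% of all genes): Ccnd1, Ccnd2, Ccne1 and Cdk4. Cdk4 did not pass without DMSO 72 h replicate 3 (0.21, adjusted p = 0.098). Ccnd3 (0.16), Ccne2 (0.22), E2f1 (-0.18) and E2f8 (0.44) passed in neither fit, and Cdk2, the partner of the E cyclins, passed only without that array (-0.38 with it and -0.62 without it). The other Cdk2 probe set, of similar level (mean 8.39 against 8.49), differed by -0.05 with all arrays. Ccnd2 read 11.23, 11.13 and 11.27 in DMSO and 12.19, 11.71 and 12.12 in AA at 72 h, a difference of 0.79 ± 0.14 (adjusted p = 8.1e-05). Ccne1 read 8.28, 8.39 and 7.90 in DMSO and 8.86, 8.86 and 9.0 in AA, a difference of 0.71 ± 0.12 (adjusted p = 7.08e-05). Ccnd1 read 12.41, 12.38 and 12.18 in DMSO and 12.76, 12.92 and 12.90 in AA, a difference of 0.54 ± 0.09 (adjusted p = 7.86e-05). None of these groups overlapped, and the differences without DMSO 72 h replicate 3 were 0.83, 0.57 and 0.47. The CDK inhibitor Cdkn1a was higher in AA at each hour, by 0.68 ± 0.09, 1.12 ± 0.09 and 3.71 ± 0.09 at 6, 24 and 72 h (adjusted p = 0.000182, 1.32e-06 and 1.56e-16), and by 3.61 at 72 h without DMSO 72 h replicate 3.

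In licensing, 3 of 4 genes rose at 72 h with all arrays (75%, against 27.4% of all genes). Without DMSO 72 h replicate 3, 1 rose. Cdt1 read 10.04, 10.17 and 9.70 in DMSO and 10.43, 10.54 and 10.45 in AA, a difference of 0.50 ± 0.11 (adjusted p = 0.000858), and of 0.37 without DMSO 72 h replicate 3. Orc1 read 4.27, 4.10 and 3.63 in DMSO and 4.72, 4.53 and 4.98 in AA, close to the floor. Its difference of 0.74 ± 0.26 (adjusted p = 0.0235) became 0.56 (adjusted p = 0.12) without that array. Orc6 read 8.60, 8.74 and 8.56 in DMSO and 8.92, 8.95 and 9.16 in AA. The groups were separate, but the difference of 0.38 ± 0.15 (adjusted p = 0.0461) also missed the threshold without it (0.34, adjusted p = 0.122). Gmnn read 8.87, 8.68 and 8.07 in DMSO and 8.59, 8.62 and 8.55 in AA, and did not pass in either fit.

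**Figure D5:**
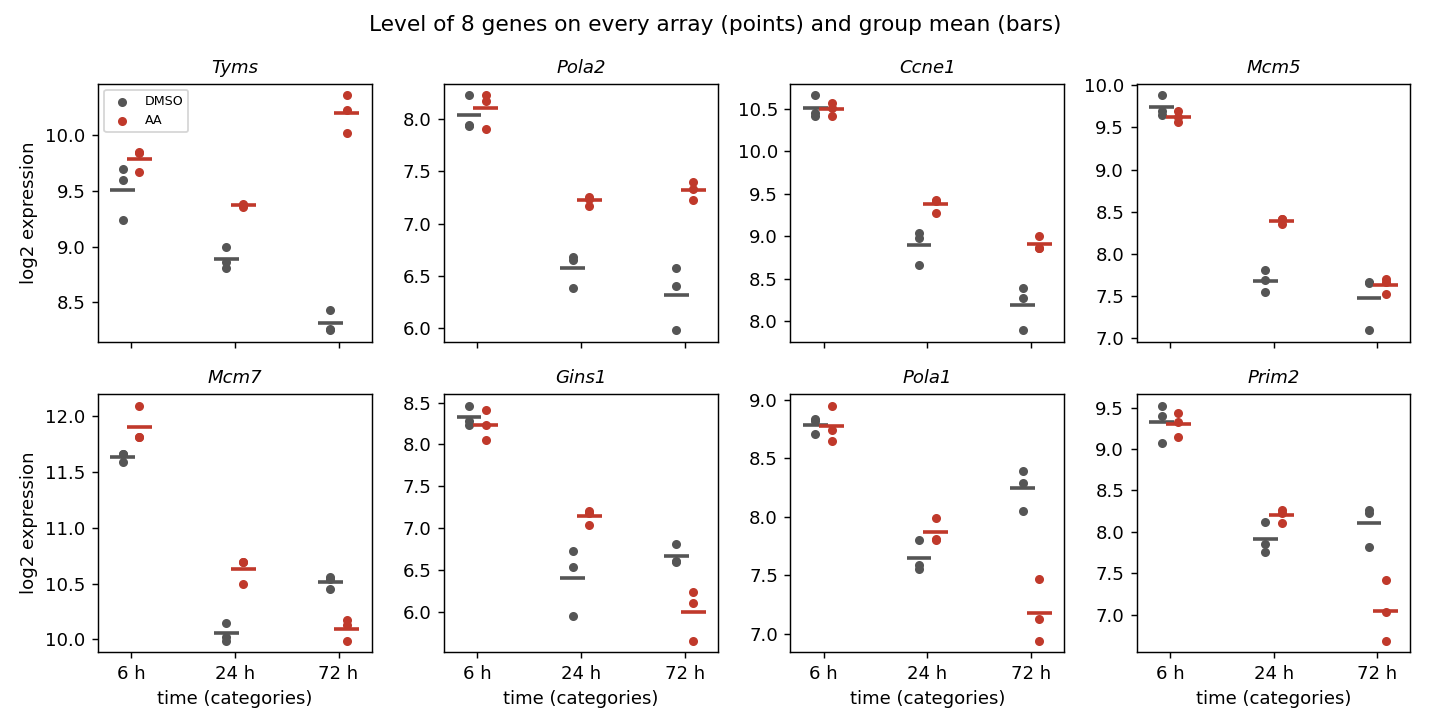
Log2 level of 8 genes on each array (points; vertical axes, each on its own range) at 6, 24 and 72 h (horizontal axis, categories), grey for DMSO and red for AA, with bars at the group means of 3 arrays. Tyms, Pola2 and Ccne1 are higher in AA at 72 h, Mcm5 has overlapping groups there, and Mcm7, Gins1, Pola1 and Prim2 are lower.

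Helicase genes went both ways at 72 h, with 2 rises and 3 falls among 11 (18.2% and 27.3%), against 27.4% and 19.8% of all genes. Mcm7 read 10.56, 10.54 and 10.45 in DMSO and 9.99, 10.13 and 10.17 in AA. All AA arrays were lower, by -0.42 ± 0.08 (adjusted p = 0.000429), and by -0.45 without DMSO 72 h replicate 3. Gins1 read 6.81, 6.61 and 6.60 in DMSO and 6.24, 6.11 and 5.66 in AA, a difference of -0.67 ± 0.18 (adjusted p = 0.00421) with no overlap, and of -0.71 without that array. Mcm6 read 10.27, 10.25 and 9.78 in DMSO and 9.80, 9.61 and 9.91 in AA, a difference of -0.33 ± 0.10 (adjusted p = 0.0143). Only DMSO replicate 3 of Mcm6 lay among the AA arrays, and without it the difference was -0.49. Cdc45 read 7.23, 7.06 and 6.77 in DMSO and 7.30, 7.94 and 7.50 in AA, a difference of 0.56 ± 0.15 (adjusted p = 0.00479), with all AA arrays higher, and of 0.43 (adjusted p = 0.0371) without DMSO replicate 3. Gins4 rose by 0.52 ± 0.15 with all arrays, and by 0.42 without DMSO 72 h replicate 3, where it did not pass (adjusted p = 0.053). Mcm5 read 7.66, 7.67 and 7.10 in DMSO and 7.70, 7.67 and 7.53 in AA, so its groups overlapped (0.16, adjusted p = 0.324, and -0.03 without DMSO replicate 3).

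Subunits of the polymerase alpha-primase complex, which lays the first primer of each strand, parted at 72 h. Pola1, the catalytic subunit, read 8.29, 8.39 and 8.05 in DMSO and 7.47, 7.12 and 6.94 in AA. Prim2, the large primase subunit, read 8.23, 8.26 and 7.82 in DMSO and 7.42, 6.69 and 7.03 in AA. Every AA array of both genes was below every DMSO array, by -1.07 ± 0.13 (adjusted p = 2.17e-06) and -1.06 ± 0.17 (adjusted p = 3.48e-05). Pola2, the accessory subunit, read 6.40, 6.57 and 5.98 in DMSO and 7.23, 7.40 and 7.33 in AA. It was higher on every AA array, by 1.0 ± 0.15 (adjusted p = 1.44e-05). Prim1, the catalytic primase subunit, differed by 0.17, and by 0.06 without DMSO 72 h replicate 3, and passed in neither fit. Without DMSO 72 h replicate 3 the differences of Pola1, Prim2 and Pola2 were -1.17, -1.20 and 0.83, and all 3 passed. Pola1 and Prim2 have the longest gene spans of the tested genes in the RefSeq table; any relation of span to the difference was not tested.

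Elsewhere at the fork, Lig1, the ligase that seals Okazaki fragments, read 8.93, 8.76 and 8.54 in DMSO and 8.52, 8.0 and 8.39 in AA at 72 h. It fell by 0.44 on the log2 scale (-0.44 ± 0.14, adjusted p = 0.0124), without overlap, and the difference was -0.54 without DMSO 72 h replicate 3. Both polymerase epsilon subunits among the 55 genes rose with all arrays, Pole by 0.59 ± 0.22 and Pole2 by 0.98 ± 0.29, and neither passed without DMSO 72 h replicate 3 (adjusted p = 0.0928 and 0.0594). The subunit Pole4, in the list of other replication genes, differed by 0.17 ± 0.08 and did not pass. Pole2 read 4.86, 6.16 and 4.85 in DMSO and 6.41, 5.99 and 6.39 in AA, with DMSO replicate 2 inside the AA range. Rfc2, Rfc3, Rfc4 and Rpa2 rose by 0.28, 0.34, 0.32 and 0.38 with all arrays and did not pass without DMSO 72 h replicate 3. The polymerase delta subunits Pold1 (-0.00) and Pold2 (0.11) and Pcna (0.08) passed in neither fit. Of the delta subunits in the list of other replication genes, Pold3 fell (-0.47 ± 0.12, adjusted p = 0.00352, and -0.54 without that array) and Pold4 (0.07) did not pass.

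In chromatin assembly limma called 0 of 5 genes at 72 h with all arrays, against 47.2% of all genes, and 0 of 5 were below an unadjusted p of 0.05. Asf1b read 8.56, 8.48 and 8.09 in DMSO and 8.22, 8.04 and 8.23 in AA. DMSO replicates 1 and 2 were above all AA arrays and replicate 3 lay among them, so that the difference of -0.22 (adjusted p = 0.123) became -0.36 (adjusted p = 0.0124) without replicate 3. Uhrf1 read 7.63, 7.73 and 6.98 in DMSO and 7.33, 6.94 and 7.35 in AA, and Dnmt1 read 9.70, 9.80 and 9.47 in DMSO and 9.65, 9.23 and 9.51 in AA. Both had overlapping groups because of the same control array, and both fell without it (-0.47 and -0.28). Chaf1a read 7.05, 7.24 and 6.69 in DMSO and 7.11, 6.87 and 6.92 in AA and passed in neither fit (-0.03 and -0.18).

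The change of the treatment difference between hours was tested directly. From 6 h to 24 h it increased in 11 of the 49 genes and decreased in 0 (22.4%), against 2.43% of all genes; at an unadjusted p under 0.05 limma gave 31 and 1. The increases reached 1.18 ± 0.26 in E2f8 and 1.17 ± 0.27 in Gins3, and the lowest adjusted p was that of Pcna (0.45 ± 0.08, adjusted p = 0.0135), whose difference turned from a fall to a rise. Leaving out AA 6 h replicate 2 or 3, DMSO 6 h replicate 2 or 3, any AA 24 h array, or DMSO 24 h replicate 2 or 3 brought this count to between 1 and 6. From 24 h to 72 h the treatment difference increased in 2 genes and decreased in 19 (42.9%), against 32.4% of all genes. Increases made up 4.08% of the 49, against 18.7% of all genes, and decreases 38.8% against 13.7%. The median change was -0.40, against 0.06 over all genes. The 2 increases were those of Tyms (1.41 ± 0.16, adjusted p = 1.83e-06) and Ccnd1 (0.43 ± 0.13, adjusted p = 0.0158). The decreases took in 8 of 11 helicase genes, 5 of 16 polymerase, clamp and fork genes and 4 of 5 chromatin genes, and were largest in Gins1 (-1.41 ± 0.25), Prim2 (-1.35 ± 0.24) and Pola1 (-1.29 ± 0.19). The count stayed between 17 and 23 when any 1 array was left out. Both changes involve the 24 h arrays, so they are not independent of each other.

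Read across hours, 9 genes rose at both 24 h and 72 h with all arrays, 12 rose at 24 h without passing at 72 h, and 9 rose at 72 h without passing at 24 h. Without DMSO 72 h replicate 3 these counts were 4, 14 and 3, and 6 genes rose at 24 h and fell at 72 h. The patterns were not counted over all genes, of which 1.81% rose at 24 h and 27.4% at 72 h with all arrays. With all arrays Gins1, Lig1 and Mcm7 rose at 24 h and fell at 72 h (3 genes), and the falls of Gins1 and Mcm7 at 72 h passed whichever single array was left out. Pola1, Prim2 and Mcm6 fell at 72 h without having passed at 24 h. The lowest of the 6 group means was DMSO 24 h in 23 of the 49 genes, and AA 72 h and DMSO 72 h in 12 each.

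Related genes outside the 55 were followed by 3 lists, to be read against 24.5% of all genes called at 6 h, 2.09% at 24 h and 47.2% at 72 h. In these lists limma gave 0 lower genes at 24 h also at an unadjusted p under 0.05. Among 16 tested retinoblastoma family, other E2F and CDK inhibitor genes, 1 rose and 3 fell at 6 h, 3 rose and 0 fell at 24 h, and 4 rose and 5 fell at 72 h (25%, 18.8% and 56.2% called). E2f7, the other atypical E2F repressor, rose by 1.21 ± 0.22 at 24 h and by 0.84 ± 0.22 at 72 h (0.69 without DMSO 72 h replicate 3). The retinoblastoma relative Rbl1 fell at 6 h (-0.73 ± 0.13). Among 27 other replication genes, 4 rose and 2 fell at 6 h, 4 rose and 0 fell at 24 h, and 4 rose and 5 fell at 72 h (22.2%, 14.8% and 33.3%). Rnaseh2b, a subunit of ribonuclease H, and Chtf18, of an alternative clamp loader, each rose by 0.72 at 6 h. The checkpoint mediator Clspn rose by 1.36 ± 0.23 at 24 h from controls at 4.37, 3.55 and 3.66, near the floor, and the Pcna partner Pclaf rose by 0.85 ± 0.12. Among 16 other nucleotide and chromatin genes, 5 rose and 2 fell at 6 h, 1 rose at 24 h (Atad2, 0.64 ± 0.09) and 6 rose and 2 fell at 72 h (43.8%, 6.25% and 50%). In that list the deoxycytidine kinase Dck (1.30 ± 0.18) and the nucleoside diphosphate kinase Nme1 (1.01 ± 0.11) rose at 72 h, the hour at which Tyms rose most (1.13 and 0.96 without DMSO 72 h replicate 3), and the histone mRNA binding protein Slbp fell at 6 h (-1.09 ± 0.25). Without that array, a setting added for these lists after the data were seen, 4 rose and 5 fell, 2 rose and 5 fell, and 6 rose and 2 fell at 72 h.

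Of 22 tested genes of G2 and mitosis, 19 rose at 24 h (median 0.86), against 1.81% of all genes. At 72 h 20 fell (median -0.93), against 19.8% of all genes, where the 49 G1/S and replication genes had a median of 0.09. Without DMSO 72 h replicate 3, again a setting added after the data were seen, 21 of the 22 fell (median -1.18), against 17.7% of all genes. Ccna2, whose cyclin A serves both S phase and mitosis, differed by 0.69 ± 0.16 at 24 h and -1.21 ± 0.16 at 72 h, and by -1.38 at 72 h without that array. In DMSO all 22 fell between 6 h and 24 h (median -2.12), against 30.5% of all genes, and all 22 rose between 24 h and 72 h (median 1.16), against 17.2%. The difference between the lists was not tested.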

How the data were processed

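Biotin-labelled cRNA from 18 NRK-52E samples was read on Affymetrix rat arrays, per the labels' protocols. The authors deposited a log2 value for every probe set on each array. The submitters' processing notes name GCRMA (background correction from probe sequence, normalization between arrays and summary over probes), with version and settings not given in the sources used here. Log2 as the unit was read from the range of the values. Of 31099 probe sets, 20826 had 1 gene symbol in the platform annotation, 436 several and 9831 none (57 were controls); 20758 matched a RefSeq gene number.

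The 9015 genes that reached log2 4 on 3 or more arrays were fitted in R 4.3.3 with limma 3.58.1: 6 group means, an intensity trend, 12 residual and 7.27 prior degrees of freedom, and Benjamini-Hochberg adjustment over all genes in each of 7 comparisons. Steps were tested on simulated data. Treatment comparisons at different hours share no arrays.

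The genes, steps and lists were chosen with earlier results of these data known. Values on every array are given for the 4 genes with the lowest adjusted p of each step at 24 h or 72 h, and for genes called in opposite directions at those hours; some others (Cdk4, Pcna, Mcm6, Pole2) were added after their values were seen. From the related lists, up to 4 called genes with the largest change in each comparison and Cdkn1a were named, and Atad2, Ccna2, Rfc1, Pole4, Pold3, Pold4 and the marker genes were added after their values were seen.

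Same-numbered samples were not paired. Alternatives were centring of arrays, other filters, the mean of a gene's probe sets, no intensity trend, a replicate block, only the arrays compared, and leaving out each array. Promoter letters came from RefSeq's table (GRCr8).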

Additional observations from a re-analysis of the deposited data

Results flagged for a closer look

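The genes below are listed because the treatment difference itself differed between hours by limma's test of that change (adjusted p under 0.05 over 9015 genes); values are the change in log2 units. From 6 h to 24 h the difference increased in cyclin, E2F and helicase genes Ccne2 (0.75), E2f8 (1.18), Mcm4 (0.58), Mcm5 (0.83) and Gins3 (1.17). It also increased in the fork and chromatin genes Rfc3 (0.68), Rfc5 (0.75), Rpa2 (0.67), Pcna (0.45), Asf1b (0.68) and Chaf1a (0.95). Ccne2 is the 1 gene of these whose difference passed at 6 h as a fall and did not pass at 24 h, and Pcna and Asf1b passed at both hours.

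From 24 h to 72 h the difference increased in Ccnd1 (0.43) and Tyms (1.41). It decreased in the licensing and helicase genes Gmnn (-0.68), Mcm2 (-0.42), Mcm3 (-0.70), Mcm4 (-0.50), Mcm5 (-0.56), Mcm6 (-0.67), Mcm7 (-0.99), Gins1 (-1.41) and Gins3 (-1.15). It decreased in the fork genes Pola1 (-1.29), Prim2 (-1.35), Rfc5 (-0.69), Fen1 (-0.83) and Lig1 (-0.98). It decreased in the nucleotide and chromatin genes Rrm1 (-0.81), Asf1b (-1.21), Chaf1a (-0.76), Uhrf1 (-0.91) and Dnmt1 (-0.56). The DMSO 72 h group enters each of these, and without its replicate 3 there were 1 increase and 22 decreases.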

How the results depend on the processing

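Leaving out 1 array at a time gave 1 to 7 called genes of the 49 at 6 h, 7 to 23 at 24 h, 18 to 23 at 72 h, 1 to 12 for the change from 6 h to 24 h, 17 to 23 for the change from 24 h to 72 h, 47 for DMSO 24 h against 6 h, and 13 to 16 for DMSO 72 h against 24 h. The balance reversed at 6 h without DMSO 6 h replicate 3 (5 calls, 2 higher and 3 lower) and at 72 h without DMSO 72 h replicate 3 (20 calls, 7 higher and 13 lower). Fits to only the arrays compared called 2 genes at 6 h and 7 for the change from 6 h to 24 h. Without the filter on low values, which raised the number of tested genes to 14217, 10 were called at 24 h and 1 for that change. For the same change, centred arrays gave 5 and no intensity trend gave 6. The cause was not tested. Every other setting kept its count within 1.5 times. The replicate block gave 7, 23, 24, 12, 22, 47 and 16 calls, in the order used above. Same-numbered samples of 1 hour had deviations correlated from -0.16 to 0.16 (9 pairs), and differently numbered ones from -0.18 to 0.29 (18 pairs). With 3 arrays a group these values cannot tell whether the numbers mark shared plates or days. Of the single genes' fits at 24 h, 530 kept their side of the threshold, 98 lost it and 8 gained it, and 0 called differences changed sign. The 98 all belong to the 24 genes that rose. The 530 include fits of the 25 genes that did not pass, which had no call to lose. Weak probe sets lie near the floor of the scale; Orc1 read 3.63 on 1 array.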

Other observations

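Several of the genes were measured by more than 1 probe set (11 genes), which gave 13 further probe sets past the filter. The sign of the treatment difference was that of the chosen probe set in 9 of the 13 at 6 h, 11 at 24 h and 10 at 72 h, and for DMSO 24 h against 6 h in 12. At 24 h the exceptions were a probe set of Tk1 and one of Dut, and at 72 h Mcm10, Rfc5 and Tk1. For Cdc45 the further probe sets differed by 0.15 and 0.95 at 24 h, against 0.81 for the chosen one. For DMSO 24 h against 6 h the further Mcm10 probe set differed by -3.04, against -1.06 for the chosen one. For Ccnd1 the second probe set differed by 0.72 at 72 h, against 0.54, and for Cdk2 by -0.05, against -0.38.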
